A study of Mus musculus with 15 samples.

Results

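The Hox cluster genes encode homeodomain transcription factors that lie side by side in 4 chromosomal clusters, HoxA to HoxD. They were taken here as every protein-coding gene whose symbol consists of Hox, a cluster letter and a paralog number, which gave 39 of the 48709 genes counted: 11 in HoxA, 10 in HoxB, 9 in HoxC and 9 in HoxD. Paralog numbers run from 1 to 13, and the members were described as anterior (1 to 3, 8 genes), central (4 to 8, 15 genes) and posterior (9 to 13, 16 genes). On GRCm38/mm10 the HoxA members span chr6:52155590-52260880, the HoxB members chr11:96194316-96368256, the HoxC members chr15:102921103-103036852 and the HoxD members chr2:74668310-74765142.

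In the embryo, Hox genes are switched on in the order in which they lie in a cluster, and the low-numbered members act in the head and neck while the high-numbered members act in the trunk, limbs and tail. Retinoic acid receptors and CDX factors activate them, MLL complexes maintain them, and Polycomb complexes keep them silent, with a bivalent histone mark at their promoters in embryonic stem (ES) cells. Pluripotent ES cells are therefore known as cells with little Hox transcription.

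RNA sequencing was carried out on mouse ES cells from which the pluripotency factor OCT4, encoded by Pou5f1, was removed in either of 2 ways. The CreER line carried a floxed Oct4 allele opposite a null allele (Oct4Fl/-; CAG CreER, strain Mixed 129SV C57BL/6) and was sampled untreated (0 h) and after 12, 18, 24 and 36 h in 500 nM 4-hydroxytamoxifen (4OHT), which lets Cre recombinase delete the floxed allele, with 2 libraries at each time. The O4AID line (ZHBT; Oct4-/-; TetOFF Oct4; CAG Oct4AID; CAG Tir1, strain 129SV) lived on a degron-tagged OCT4, while doxycycline, present at every time including 0 h, kept its wild-type Oct4 transgene silent. It was sampled untreated and after 1.5, 6, 10 and 24 h in 500 µM indole-3-acetic acid (IAA), which directs the tagged protein to degradation through Tir1, with 1 library at each time. The alleles named for a line were carried by all its groups, and the CAG promoter drives CreER, Oct4AID and Tir1 in all cells. Both lines grew on gelatin-coated plastic in N2B27 medium with PD03, Chiron and LIF, and O4AID was derived from ZHBTc4 ES cells. For the 4OHT course in which it followed OCT4 levels, the study describes a change to medium with serum and LIF. Its text does not state whether the sequenced CreER cells had that change. If they did, 4OHT and serum cannot be told apart. The line, its strain, its culture history and its sequencing depth cannot be told apart in a comparison of CreER with O4AID.

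The CreER libraries held 21655083 to 30774618 reads on genes and the O4AID libraries 40537353 to 48719670. Levels are given as reads, or as CPM, which are reads relative to library size, scaled by trimmed mean of M-values (TMM) factors over all 15 libraries. Pou5f1 RNA in CreER stood at 319 ± 3.1 CPM untreated and 117 ± 7.4 CPM after 36 h of 4OHT (SD over 2 libraries), whereas the O4AID transcript, whose protein and not RNA is targeted, went from 766 to 633 CPM. ES cell markers were present in both lines, the 9 listed genes summing to 2280 to 2660 CPM in CreER. In O4AID they summed to 7170 CPM at 0 h and 2230 CPM at 24 h of IAA, with 8 of 9 past 2-fold lower. Markers of other cells moved during the time courses or differed between the lines: 5 trophectoderm genes rose together from 27.1 to 106 CPM in CreER by 36 h and went from 3.1 CPM at 0 h to 16.7 CPM at 24 h in O4AID, with all 5 past 2-fold higher. The 11 fibroblast genes summed to 11.4 to 14.0 CPM in CreER and 42.2 to 59.9 CPM in O4AID, where Pdgfrb alone gave 40.1 CPM at 0 h and Col3a1, Postn, Dcn and Twist2 were at the detection floor. Neural progenitor genes summed to 15.4 to 27.6 CPM in CreER and 10.1 to 17.2 CPM in O4AID, and primitive streak and mesoderm genes to 13.2 to 42.9 and 10.6 to 13 CPM. Of the primitive streak and mesoderm genes, Eomes alone gave 11.1 to 41.2 CPM in CreER. The study names Eomes as a marker of the trophoblast lineage, so this sum is not a measure of streak or mesoderm cells alone. The part of these cells in the Hox levels below was not tested, and in bulk RNA fewer cells of a type cannot be told apart from less RNA per cell.

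Hox transcription was very low in CreER ES cells and higher in O4AID ES cells. All 39 members together took 353 to 505 reads in a CreER library, or 0.00146 to 0.0018% of its reads, and 6056 to 7558 reads in an O4AID library, or 0.0131 to 0.0163%. A floor of 3 reads corresponded to 0.094 to 0.14 CPM in a CreER library and to 0.065 to 0.077 CPM in an O4AID library, so the deeper O4AID libraries also saw lower levels. In CreER, 7 members never exceeded that floor in any of the 10 libraries: Hoxa6, Hoxb2, Hoxb5, Hoxb6, Hoxc9, Hoxd3 and Hoxd4. In O4AID, 4 did not in any of the 5 libraries: Hoxb2, Hoxb3, Hoxb5 and Hoxd3. No member was at 0 in every library of either line. Raising the floor to 10 reads in each library put 26 members under it in CreER and 7 in O4AID, where Hoxb1, Hoxb6 and Hoxb8 joined the previous 4. Such counts, made from PCR-amplified reads without molecular identifiers, carry intervals that cover counting error only.

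**Figure D1:**
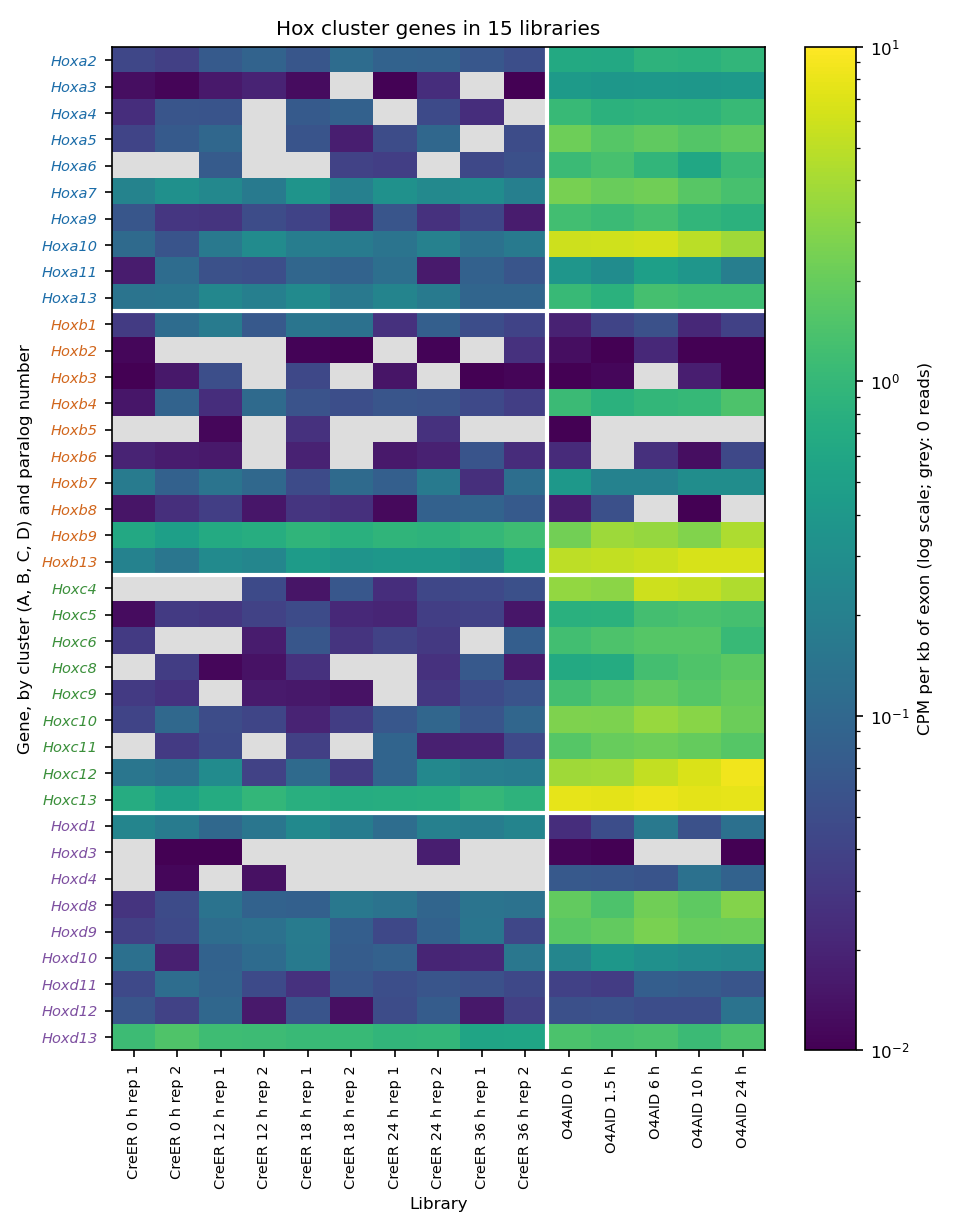
Level of 38 Hox cluster genes (rows, by cluster and paralog number) in the 15 libraries (columns), as CPM per kb of exon on a logarithmic colour scale, with grey for 0 reads. The 5 O4AID columns at the right are brighter than the 10 CreER columns for all HoxA and HoxC rows, and several HoxB rows stay dark in both lines.

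Only 8 members averaged at least 10 reads per library in CreER, among them Hoxa7, Hoxa10, Hoxa13, Hoxb9, Hoxb13, Hoxc13 and Hoxd13. Per length of exon, Hoxd13, which patterns the digits, stood at 1.01 ± 0.272 CPM per kb (SD over the 10 CreER libraries, all times), then Hoxb9, a gene of the posterior trunk, at 0.823 ± 0.193 and Hoxc13, which acts in hair and nail, at 0.779 ± 0.139 CPM per kb. The ranges of Hoxd13 (0.567 to 1.48), Hoxb9 (0.487 to 1.16) and Hoxc13 (0.523 to 1.0) overlapped. Hoxb13, a prostate and tail gene, was lower at 0.336 ± 0.134, and Hoxa7 came after it at 0.258 ± 0.0632 CPM per kb. The median over members was 0.0435 CPM per kb for the anterior, 0.0296 for the central and 0.0891 for the posterior genes.

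In O4AID, 30 members averaged at least 10 reads: all 11 in HoxA, 4 of 10 in HoxB, all 9 in HoxC and 6 of 9 in HoxD. Hoxc13 led with 7.72 ± 0.248 CPM per kb (SD over the 5 O4AID libraries, which differ in time), and Hoxb13 stood at 5.81 ± 0.708, Hoxc12 at 5.67 ± 2.07, Hoxa10, which patterns the uterus and the lumbar skeleton, at 5.41 ± 1.09, Hoxc4 at 4.4 ± 1.29 and Hoxb9 at 3.26 ± 0.776. Hoxb13, Hoxc12 and Hoxa10 did not differ beyond their spread. The median was 0.06 CPM per kb for the anterior, 1.08 for the central and 1.78 for the posterior members. HoxC took 34.3 to 41.2% of all Hox reads in O4AID against 13.6 to 20.5% in CreER, while HoxD took 8.46 to 10.4% against 16.9 to 34.3%, so the clusters stood in different proportions in the 2 lines.

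The promoters of 4 members that differ in level or course are given, with no test of a link between sequence and level: Hoxa10, at 839 reads in untreated O4AID and 6 to 23 reads in CreER; Hoxb8, with at most 6 reads in any library; and Hoxd8 and Hoxd13, members of HoxD whose 36 h levels in CreER lay above and below the untreated ones. Each is the 250 bases before a RefSeq transcription start on GRCm38.p6, written 5′ to 3′ on the gene's strand, with CG dinucleotides, the sites of DNA methylation, in capitals. The Hoxa10 window lies at chr6:52234940-52235189 on the minus strand, before the more downstream of its 2 listed starts and within an intron of the longer annotated transcript. The Hoxb8 window lies at chr11:96281655-96281904, the Hoxd8 window at chr2:74704365-74704614 and the Hoxd13 window at chr2:74667975-74668224, all on the plus strand. No annotated exon overlapped the 4 windows, and the Hoxd8 window lay inside the antisense gene Hoxd3os1.
Hoxa10: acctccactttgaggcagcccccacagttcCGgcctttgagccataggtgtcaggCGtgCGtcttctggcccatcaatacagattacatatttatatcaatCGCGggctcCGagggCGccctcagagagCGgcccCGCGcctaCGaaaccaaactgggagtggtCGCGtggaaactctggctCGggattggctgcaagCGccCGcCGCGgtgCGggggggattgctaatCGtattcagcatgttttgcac
Hoxb8: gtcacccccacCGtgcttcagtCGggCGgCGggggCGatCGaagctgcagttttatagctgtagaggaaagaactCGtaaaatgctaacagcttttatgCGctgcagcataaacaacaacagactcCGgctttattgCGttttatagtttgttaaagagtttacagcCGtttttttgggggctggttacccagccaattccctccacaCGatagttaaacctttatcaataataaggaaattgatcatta
Hoxd8: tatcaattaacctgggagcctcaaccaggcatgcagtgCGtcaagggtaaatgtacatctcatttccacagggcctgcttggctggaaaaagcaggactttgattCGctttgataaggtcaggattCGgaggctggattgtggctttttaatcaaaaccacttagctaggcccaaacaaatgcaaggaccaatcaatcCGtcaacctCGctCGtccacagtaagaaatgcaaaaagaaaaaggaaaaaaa
Hoxd13: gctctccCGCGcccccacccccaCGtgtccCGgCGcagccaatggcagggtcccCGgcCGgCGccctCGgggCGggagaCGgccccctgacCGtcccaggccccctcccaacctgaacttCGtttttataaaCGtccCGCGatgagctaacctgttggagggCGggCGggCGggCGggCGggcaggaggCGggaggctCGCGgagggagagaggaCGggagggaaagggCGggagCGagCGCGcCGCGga

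The Hoxd13 window held 31 CG dinucleotides at 74.4% G and C, and the Hoxd8 window 6 at 44.4%. Hoxa10 had 20 at 59.2% and Hoxb8 12 at 44.4%. The table of RefSeq promoters held 24 windows for 22 of the 39 members, with 2 to 35 CG dinucleotides and a median of 12.5, against a median of 6 over all 32851 windows of the same length. The octamer ATGCAAAT, the sequence to which POU factors such as OCT4 bind, or its reverse complement ATTTGCAT, was found in 0 of the 24 Hox windows and in 1.6% of all windows. This says only that these letters are not in the 250 bases examined.

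Untreated cells of the 2 lines were compared member by member. With the 1 O4AID library at 0 h there is no test, so a difference was called by size, as at least 2-fold on the log2(CPM + 0.1) scale with at least 20 reads over the 3 libraries, beside the exact 95% counting interval of the ratio. By this rule 27 of the 30 members with enough reads were higher in O4AID and 1, Hoxd1, was lower, where 20.7% of all 19880 genes with enough reads were higher and 24.1% lower. The median difference of the 30 members was 3.69 on the log2(CPM + 0.1) scale and that of all genes 0.02. It was 3.69 also with the members at 0 in CreER set to their lower bounds. All 5 O4AID libraries stood above all 10 CreER libraries, at every time, for 28 of the 39 members. Hoxb2, Hoxb5, Hoxb6 and Hoxd3 had too few reads for this comparison. Of all 25424 genes with at least 20 reads over the 15 libraries, 26.2% did so.

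**Figure D2:**
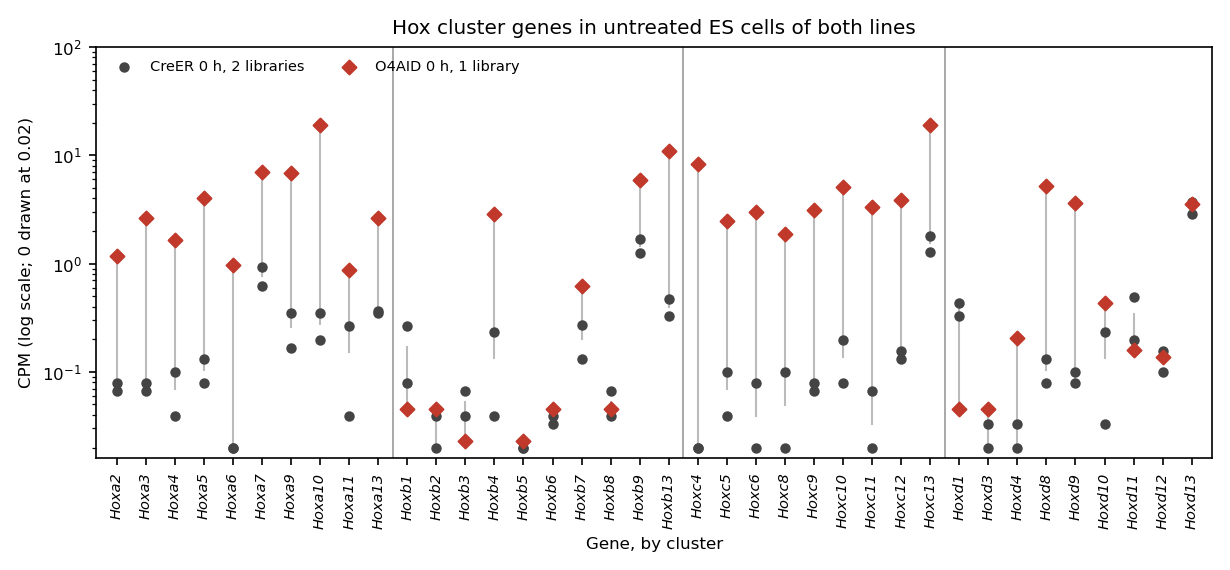
CPM of 38 Hox cluster genes (log axis, 0 drawn at 0.02) in the 2 untreated CreER libraries (grey circles) and the untreated O4AID library (red diamonds), by cluster. All HoxA and HoxC diamonds lie above both circles, 6 of 10 HoxB genes lie near the floor in both lines, and Hoxd13 lies at the same level in both.

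HoxA was higher in O4AID at all of its 11 positions. Hoxa10 had 0.351 and 0.198 CPM against 19.1 CPM, a ratio of 71.2 (42.9 to 128), which was the largest among HoxA members with reads in CreER. Hoxa7 had 0.625 and 0.925 against 7.04 CPM, a ratio of 8.94 (6.5 to 12.6). The genes Hoxa2, Hoxa3, which is required for the thymus, Hoxa4 and Hoxa5, which is required for the lung, had 1 to 4 reads in each untreated CreER library and 52 to 177 reads in O4AID, with ratios of 16.6 to 37.6. Hoxa6 had 0 reads in both CreER libraries and 43 in O4AID, at least 8.36-fold higher, taking 3 reads in the shallower CreER library as the floor. The posterior genes Hoxa9, a factor of blood progenitors, at 27.4 (16.1 to 50.7), Hoxa13, a digit gene, at 7.32 (4.53 to 12.4) and Hoxa11, which acts in forearm and kidney, at 5.38 (2.55 to 12.6) were higher as well. Exons of Hoxa11, Hoxa3 and Hoxa7 overlap antisense RNAs over 35.0%, 25.4% and 20.4% of their length, and the strand setting of the count was not given, so their reads may include antisense RNA.

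HoxB was mixed gene by gene. Hoxb4, a gene that expands blood stem cells when raised, had 0.0391 and 0.231 CPM in CreER and 2.87 CPM in O4AID, a ratio of 20.1 (9.87 to 47.5). Its neighbours on both sides had almost no reads: Hoxb3 had 0 to 7 in CreER and 0 to 3 in O4AID, and Hoxb5 had 0 to 2 and 0 to 1. Hoxb1, Hoxb2, Hoxb6 and Hoxb8 likewise had at most 6 reads in any O4AID library, and of these Hoxb1, which marks a hindbrain segment, was the only gene to reach 13 in CreER. At the posterior end Hoxb9 had 1.68 and 1.26 CPM against 5.92 (ratio 4.09, 3.17 to 5.31) and Hoxb13 had 0.469 and 0.33 CPM against 10.96 (ratio 27.8, 18.2 to 44.8), while Hoxb7, which lies between Hoxb6 and Hoxb8, had 0.273 and 0.132 against 0.615 (ratio 3.13, 1.5 to 6.98). Exons of Hoxb3 and Hoxb2 overlap the antisense gene Hoxb3os over 52.9% and 27.3% of their length. How reads in that overlap were counted is not known, so their low counts need not show low RNA. No exon of Hoxb4, Hoxb7, Hoxb9 or Hoxb13 was shared with another annotated gene.

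HoxC was higher in O4AID at all of its 9 members, with a median difference of 4.22 on the log2(CPM + 0.1) scale. Hoxc4 had 0 reads in both untreated CreER libraries and 365 in O4AID, at least 71.0-fold higher on the same floor. Hoxc13 had 1.8 and 1.29 CPM against 18.9 CPM, a ratio of 12.5 (9.96 to 15.8). The other 7, Hoxc5, Hoxc6, Hoxc8, Hoxc9, Hoxc10, Hoxc11 and Hoxc12, had 0 to 6 reads in a CreER library at 0 h and 82 to 223 in O4AID, with ratios of 27.1 for Hoxc12 (13.4 to 63.7) to 92.3 for Hoxc11 (25.1 to 769). The wide intervals go with the 2 to 8 reads that these genes had over both CreER libraries. Hoxc8 and Hoxc9 act in the thoracic segments and Hoxc10 in the hindlimb region.

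HoxD was split by position. Hoxd8 and Hoxd9 were higher in O4AID, with Hoxd8 at 0.0781 and 0.132 CPM against 5.22 (ratio 48.6, 22 to 134) and Hoxd9 at 0.0781 and 0.0991 against 3.62 (ratio 40.5, 17 to 126). Hoxd10, at 0.234 and 0.033 against 0.433 CPM, passed by less (ratio 3.46, 1.39 to 9.73). Hoxd13 did not differ between the untreated lines beyond counting error, with 2.85 and 3.67 CPM in CreER and 3.53 CPM in O4AID, a ratio of 1.07 (0.861 to 1.34). Hoxd11 had 5 and 15 reads in CreER and 7 in O4AID, a ratio of 0.446 (0.159 to 1.1), and Hoxd12 4 and 3 against 6. Hoxd1, outside the rule for members given in full but the only member past 2-fold lower in O4AID, had 11 and 10 reads against 2, a ratio of 0.121 (0.0138 to 0.496), and its O4AID range over all times, 2 to 12 reads, overlapped the CreER range of 6 to 13. Hoxd3 and Hoxd4 share 62.4% and 52.3% of their exons with other annotated genes, each other included; Hoxd4 had 0 to 1 reads in CreER and 7 to 15 in O4AID.

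The loss of OCT4 in CreER cells was then followed within the line. Of the 39 members, 10 passed the filter on low counts and were tested with edgeR's quasi-likelihood test over all 10 CreER libraries and 18969 genes, among them Hoxa7, Hoxa10, Hoxa13, Hoxb9, Hoxb13, Hoxc13, Hoxd1, Hoxd8 and Hoxd13. The other 29, with 2 to 72 reads summed over the 10 libraries, could not be tested at this depth. The labels do not say whether replicates came from separate cultures, so the p-values measure the spread between these libraries, which may be technical. By 36 h of 4OHT, Hoxb9, Hoxb13 and Hoxc13 had risen and Hoxd13 had fallen at a Benjamini-Hochberg adjusted p under 0.05. Hoxb13, with 12 and 10 reads at 0 h, passed the filter on low counts only with the help of its treated libraries. It stayed called at 36 h with at least 10 reads required in every library (edgeR's adjusted p = 0.00658). Hoxd8 was called higher too, but with 2 and 4 reads at 0 h it entered the test only through its treated libraries, so its call is not counted as a rise. That is 4 members, or 5 of 10 tested with Hoxd8, beside 36.6% of all genes called at that time, 19.4% higher and 17.2% lower. The count with Hoxd8 was 3 in DESeq2, which gave Hoxd8 no adjusted p, 2 without the second 0 h library and 3 without either 36 h library.

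**Figure D3:**
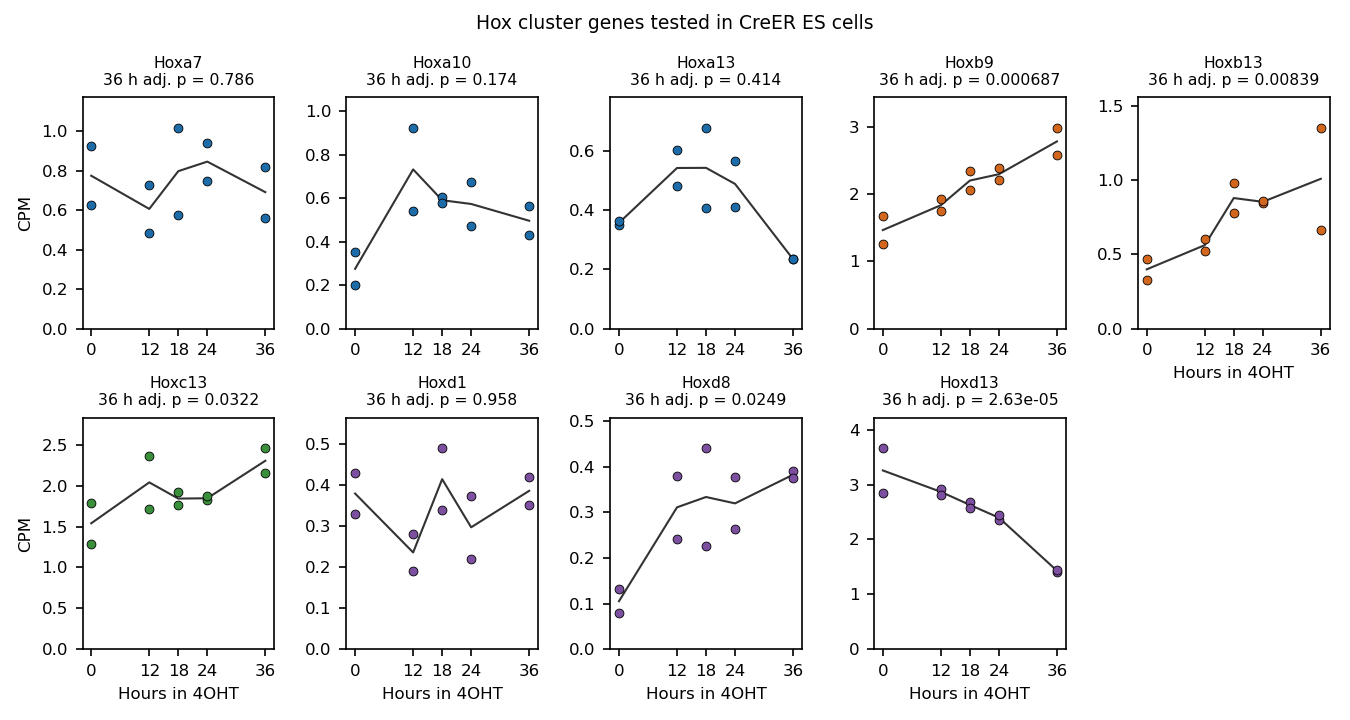
CPM of 9 of the 10 tested Hox cluster genes in CreER ES cells against hours in 4OHT, with 1 point per library (2 at each time), a line through the means and edgeR's adjusted p for 36 h against 0 h above each panel. Hoxb9 goes from 1.26 to 1.68 CPM at 0 h to 2.58 to 3.0 CPM at 36 h, and Hoxd13 from 2.85 to 3.67 CPM to 1.41 to 1.45 CPM.

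Hoxd13 gave the clearest fall. Its 2 libraries had 2.85 and 3.67 CPM at 0 h, 2.92 and 2.81 at 12 h, 2.68 and 2.58 at 18 h, 2.36 and 2.44 at 24 h and 1.41 and 1.45 at 36 h. Both libraries lay below both untreated ones from 18 h on, and the largest step came between 24 and 36 h. Its log2 fold change (log2FC) at 36 h was -1.19 (SE 0.2), or 0.439 of the untreated level, with edgeR's adjusted p = 2.63e-05. The SE here and below was calculated back from the test, as the absolute log2FC over the square root of its F statistic. At 24 h it was -0.45 with an adjusted p of 0.0605 and did not pass. Over the alternatives tried, the adjusted p at 36 h stayed between 3.73e-07 and 0.00217. In the same libraries the level of all 9 HoxD members summed to 4.02 and 4.92 CPM at 0 h and 2.78 and 2.9 CPM at 36 h, where Hoxd13 gave 36 of 71 and 31 of 62 reads.

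Hoxb9 gave the clearest rise. It had 1.68 and 1.26 CPM at 0 h, 1.75 and 1.93 at 12 h, 2.34 and 2.07 at 18 h, 2.39 and 2.21 at 24 h and 2.58 and 3.0 at 36 h, or 38 to 76 reads per library. All 8 treated libraries were above both untreated ones. It passed at 24 h with a log2FC of 0.67 (SE 0.207) and edgeR's adjusted p = 0.0201. By 36 h the rise was 1.92-fold, a log2FC of 0.94 (SE 0.208) with adjusted p = 0.000687. Over the alternatives the adjusted p at 36 h lay between 0.000239 and 0.0266, and at 24 h between 0.0144 and 0.227.

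Hoxb13, the most posterior HoxB gene, rose with it. The CPM were 0.469 and 0.33 at 0 h, 0.603 and 0.523 at 12 h, 0.982 and 0.78 at 18 h, 0.848 and 0.862 at 24 h and 0.665 and 1.36 at 36 h. All treated libraries were above both untreated ones. The log2FC at 24 h was 1.12 (SE 0.384) with edgeR's adjusted p = 0.0374, and that at 36 h was 1.32 (SE 0.389) with adjusted p = 0.00839. At 36 h the 2 replicates differed widely, and the call was lost without the second 36 h library (log2FC 0.75, adjusted p = 0.249) and without the second 0 h library (1.07, 0.0918). At 24 h, 2 of 10 members passed, where 21.6% of all genes did, and neither passed when the second 0 h library or either 24 h library was left out.

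Hoxc13 and Hoxd8 passed only at 36 h, and less firmly. Hoxc13 had 1.8 and 1.29 CPM at 0 h, 1.71 and 2.37 at 12 h, 1.93 and 1.76 at 18 h, 1.82 and 1.88 at 24 h and 2.46 and 2.15 at 36 h. Its log2FC at that time was 0.62 (SE 0.224), with edgeR's adjusted p = 0.0322. That call was lost with total counts in place of TMM factors (adjusted p = 0.0586), with only the 4 libraries compared (0.0549), with DESeq2 (0.155), without the second 0 h library (0.31) and without the first 36 h library (0.19). Hoxd8 had 2 and 4 reads at 0 h, 12 and 6 at 12 h, 6 and 13 at 18 h, 12 and 7 at 24 h and 10 and 8 at 36 h. The groups did not overlap, and its log2FC at 36 h was 1.81 (SE 0.628) with adjusted p = 0.0249, but it passed the filter on low counts only through its treated libraries and its call was lost without any 1 of the 4 libraries compared (adjusted p 0.0562 to 0.114). Of its 10 CreER libraries, none exceeded 13 reads.

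The remaining 5 tested members did not pass at any time. Hoxa10 had 0.351 and 0.198 CPM at 0 h and 0.43 to 0.925 CPM in the treated libraries, all above the untreated ones, with its largest log2FC at 12 h (1.39, SE 0.433, unadjusted p = 0.00345, adjusted p = 0.221 in edgeR's quasi-likelihood test). Hoxa13 had 0.351 and 0.363 CPM at 0 h, 0.407 to 0.68 from 12 to 24 h and 0.235 and 0.234 at 36 h, from 5 to 19 reads per library (adjusted p = 0.414 at 36 h). Hoxa10, with 9 and 6 reads at 0 h, and Hoxa13, with 9 and 11, passed the filter on low counts only through treated libraries. Their higher treated levels are therefore not counted as rises. Hoxa7 had 0.625 and 0.925 CPM at 0 h and 0.821 and 0.562 at 36 h, and Hoxd1 0.43 and 0.33 against 0.352 and 0.421.

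No member passed at 12 h in edgeR, where 2 had an unadjusted p under 0.05 and 0.395% of all genes were called, nor at 18 h, where 4 did and 8.51% were called. DESeq2 called 0 at both times, among the 4 and the 1 members to which it gave an adjusted p. The median log2 fold change of the 10 tested members was 0.37, 0.43, 0.38 and 0.52 at 12, 18, 24 and 36 h, against medians between -0.0 and 0.013 over all genes. These are medians over members that passed the filter. Hoxa10, Hoxa13, Hoxb13 and Hoxd8 did so only through, or with the help of, treated libraries. That choice can raise the medians, so they are not counted as a rise of the members. With at least 10 reads in every library, which left 6 members, they were 0.27, 0.221, 0.212 and 0.519. With all 39 members entered they were 0.288, 0.273, 0.252 and 0.237, and the median over all genes under that setting is not given here. Single libraries moved the medians of the 10 tested members. At 12 h the median was 0.563 without the first 0 h library, 0.161 without the second and 0.215 without the second 12 h library. At 18 h it was 0.261 without the first 18 h library, and at 24 h 0.25 without the first 24 h library. These comparisons share their untreated libraries and are not independent of each other.

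In O4AID the same question can be put only to single libraries, so each time was set against the 0 h library by size, with the exact counting interval of the ratio and no test. All 4 comparisons share that 0 h library. Past 2-fold on the log2(CPM + 0.1) scale were 0 of 28 members with enough reads at 1.5 h, 0 of 29 at 6 h, 1 of 29 (Hoxc8) at 10 h and 2 of 30 (Hoxc8 and Hoxc12) at 24 h, where 1.7%, 3.97%, 6.09% and 14.5% of all genes were past 2-fold. Counts of 0 to 2 are too small to be set apart from these shares. For scale, pairs of CreER replicates at the same time put 0.542 to 0.938% of genes past 2-fold, and among Hox members only Hoxd11 at 0 h (5 and 15 reads).

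**Figure D4:**
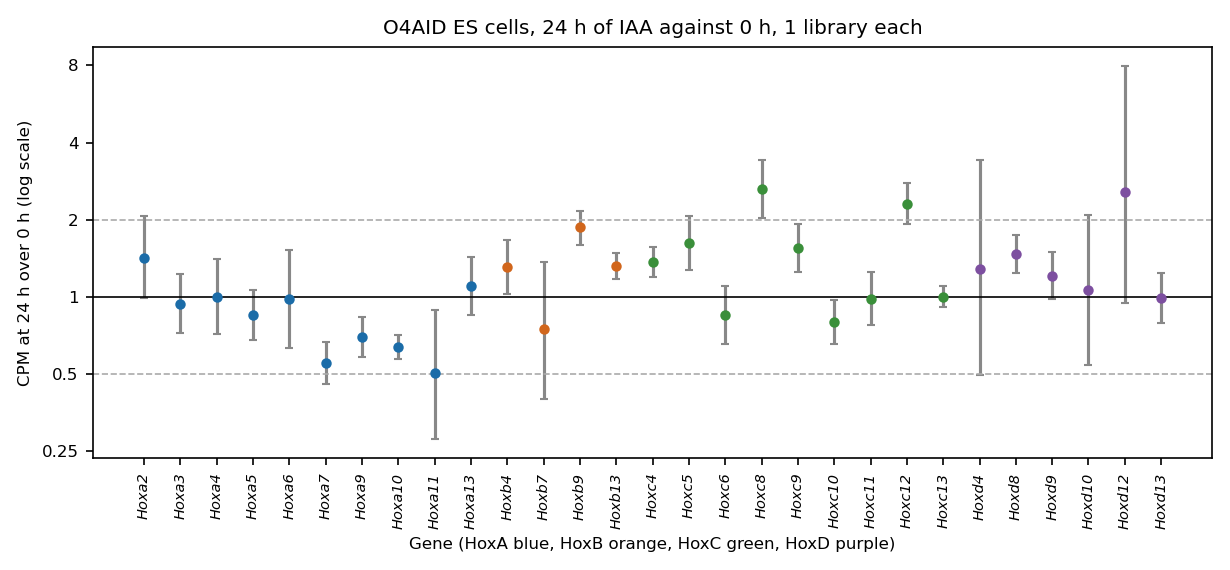
Ratio of CPM at 24 h of IAA to CPM at 0 h (log axis) for 29 of the 30 Hox cluster genes with at least 20 reads over both O4AID libraries, with exact 95% counting intervals and dashed lines at 2-fold. Hoxc8 (2.63) and Hoxc12 (2.31) lie highest among the well-counted genes, and Hoxa7, Hoxa9, Hoxa10 and Hoxa11 lie below 1.

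At 24 h, 5 of 9 HoxC members were higher than at 0 h beyond counting error, where 31.3% of all genes were. Hoxc8 had 1.87 CPM at 0 h, then 1.97, 3.56, 4.25 and 4.91 CPM at 1.5, 6, 10 and 24 h, a ratio of 2.63 (95% counting interval 2.03 to 3.43) at 24 h. Hoxc12 went through 3.87, 3.97, 5.5, 6.94 and 8.93 CPM, a ratio of 2.31 (1.92 to 2.77). Both were higher at each later time than at the one before. Hoxc4 had 8.31, 7.69, 15.2, 13.9 and 11.4 CPM, highest at 6 h and with a ratio of 1.37 (1.2 to 1.57) at 24 h. Hoxc5 (2.48, 2.54, 3.94, 4.3 and 4.02 CPM) and Hoxc9 (3.1, 3.85, 4.58, 3.97 and 4.8 CPM) ended at ratios of 1.62 (1.27 to 2.07) and 1.55 (1.25 to 1.93). Hoxc13, the highest member per kb in O4AID, stayed within 18.5 to 20.01 CPM and had a ratio of 1.0 (0.911 to 1.1). Hoxc6 had 3.01, 3.49, 3.89, 3.94 and 2.55 CPM, Hoxc11 3.3, 4.11, 4.35, 4.0 and 3.25, and Hoxc10 5.08, 4.87, 6.63, 5.61 and 4.06, so these 3 were highest at 6 or 10 h and back at or under the starting level at 24 h, with Hoxc10 lower beyond counting error (ratio 0.799, 0.655 to 0.976). At 6 h the counting interval lay above 1 for 8 of 9 HoxC members, where it did for 20.8% of all genes.

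**Figure D5:**
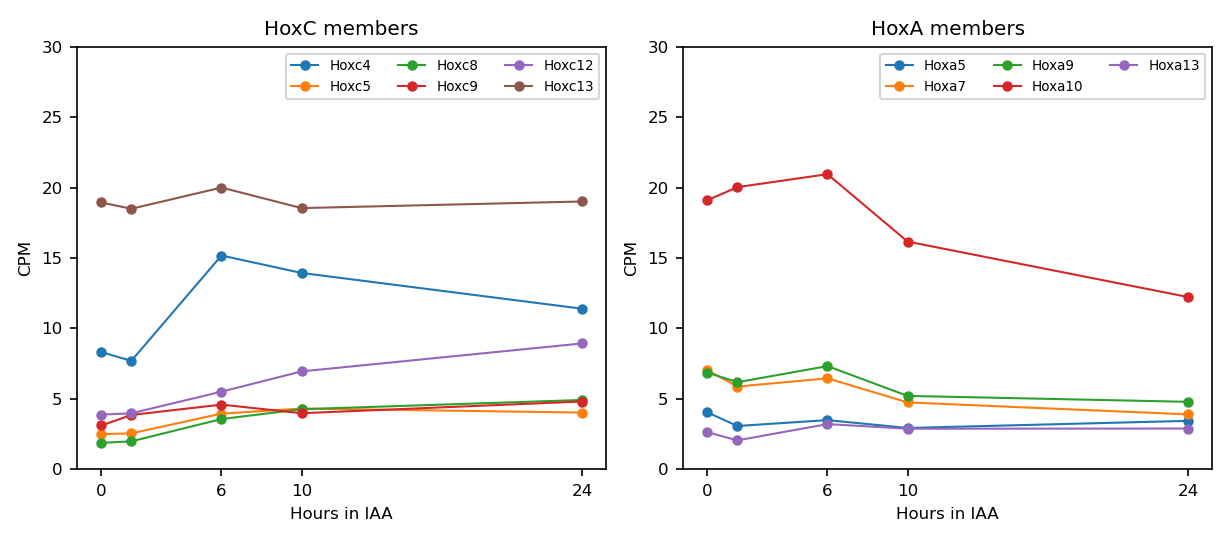
CPM of 6 HoxC (left) and 5 HoxA (right) members in the 5 O4AID libraries against hours in IAA, 1 library per time. Hoxc8 and Hoxc12 end at 4.91 and 8.93 CPM, Hoxc13 stays near its 18.9 CPM, and Hoxa7, Hoxa9 and Hoxa10 end below their starting levels.

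In HoxA, 4 of 11 members were lower at 24 h than at 0 h beyond counting error, where 36.4% of all genes were, so the count is at the share of all genes. Hoxa10 had 19.1, 20.04, 20.96, 16.2 and 12.2 CPM at 0, 1.5, 6, 10 and 24 h, a ratio of 0.64 (0.574 to 0.713) at 24 h. Hoxa7 had 7.04, 5.87, 6.45, 4.74 and 3.89 CPM, a ratio of 0.552 (0.457 to 0.666). Hoxa9 had 6.86, 6.17, 7.32, 5.2 and 4.78 CPM, a ratio of 0.697 (0.583 to 0.833), and Hoxa11, with 20 to 44 reads, ended at 0.504 (0.278 to 0.889). These 4 are neighbours in the cluster, and none was past 2-fold. Hoxa13, at the posterior end of the cluster, had a ratio of 1.1 (0.85 to 1.43). For Hoxa2 (48 to 77 reads), Hoxa3 (91 to 115), Hoxa4 (54 to 76), Hoxa5 (114 to 177), Hoxa6 (21 to 49) and Hoxa13 (86 to 132 reads), the interval at 24 h included 1.

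In HoxB, Hoxb9 had 5.92, 9.26, 8.73, 6.99 and 11.05 CPM, without a steady course, and a ratio of 1.87 (1.6 to 2.17) at 24 h. Hoxb13 had 10.96, 11.7, 12.6, 14.4 and 14.4 CPM, a ratio of 1.32 (1.17 to 1.48), and Hoxb4 had 2.87, 2.14, 2.48, 2.64 and 3.76 CPM, a ratio of 1.31 (1.03 to 1.66). Hoxb7 had 27 reads at 0 h and 13 to 21 later, with an interval at 24 h that included 1. In HoxD, Hoxd8 had 5.22, 4.01, 6.14, 5.0 and 7.66 CPM, a ratio of 1.47 (1.24 to 1.74), and Hoxd9 3.62, 4.04, 5.27, 4.25 and 4.39 CPM. Hoxd13 had 3.53, 3.21, 3.4, 2.77 and 3.49 CPM and a ratio of 0.989 (0.788 to 1.24), beside its 0.733 of the untreated level at 24 h of 4OHT in CreER. Hoxd10 (19 to 30 reads), Hoxd11 (6 to 13), Hoxd12 (5 to 16) and Hoxd4 (7 to 15) had intervals that included 1 at 24 h. Of the 30 members with enough reads, 15 had such intervals, 10 lay above 1 and 5 below, where 31.3% of all genes were above and 36.4% below.

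Set side by side at 24 h, the time sampled in both lines, Hoxb9 was 1.59-fold and Hoxb13 2.17-fold of the untreated level in CreER, and 1.87 and 1.32 in O4AID. Hoxa10 was 2.1-fold in CreER, where it did not pass and entered the test only through its treated libraries, and 0.64 in O4AID. Equal hours are not equal loss of OCT4. The study reports that its protein took over a day to be fully lost after gene deletion, and far less time in O4AID. The values at 24 h, those of Hoxd13 above included, are therefore not a matched comparison. The difference between the lines was not tested, since O4AID had 1 library per time.

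The regulators of Hox genes were read from lists of genes. Among 9 TALE homeodomain proteins, which bind DNA together with HOX proteins, 5 rose and 1 fell at 36 h in CreER, with a median log2FC of 0.21. The smallest adjusted p in edgeR were those of Meis3 (0.76 ± 0.188, adjusted p = 0.00199), Pknox1 (0.21 ± 0.065, adjusted p = 0.0118) and Meis2 (-0.66 ± 0.218, adjusted p = 0.0194), given as log2FC ± SE calculated back from the test. Meis2 also stood at 2.69 and 2.71 CPM in the untreated CreER libraries and 83.1 CPM in O4AID, 30.8-fold higher. Of the CDX and ParaHox genes 4 of 6 were tested and 2 rose: Cdx2, a trophectoderm and tailbud factor that activates Hox genes, from 2.73 and 2.61 to 14.1 and 14.4 CPM (2.43 ± 0.141, adjusted p = 1.22e-13), and Cdx1 (0.91 ± 0.232, adjusted p = 0.00267). Cdx1 had 1.09 and 1.29 CPM in untreated CreER and 107 CPM in untreated O4AID, 90.2-fold higher, and ran through 91.3, 49.5, 37.4 and 30.1 CPM in IAA.

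Of 14 genes of the retinoic acid pathway, 7 rose and 3 fell at 36 h. The receptor gene Rarg fell (log2FC -0.97 ± 0.052, adjusted p = 3.47e-14), whereas Rxra, the partner receptor (0.74 ± 0.074, adjusted p = 6.42e-09) rose. Of 8 members of MLL complexes 1 rose and 4 fell, with Ash2l (-0.43 ± 0.038, adjusted p = 5.26e-10) and Dpy30 (-0.46 ± 0.049, adjusted p = 1.64e-08) lower and the methyltransferase Kmt2a higher (0.32 ± 0.053, adjusted p = 2.09e-05). Of 24 Polycomb genes 5 rose and 11 fell, led by Phc1 (-1.26 ± 0.044, adjusted p = 2.46e-18), Phf19 (1.41 ± 0.072, adjusted p = 7.2e-15) and Eed (-0.62 ± 0.045, adjusted p = 8.74e-12). For comparison, 19.4% of all genes rose and 17.2% fell at that time. Between the untreated lines, O4AID had 0.177 of the CreER level of Rarg, 0.257 of Phf19 and 0.504 of Eed, and at 24 h of IAA 4 of the 14 retinoic acid pathway genes were past 2-fold higher and 1 lower, where 14.5% of all genes were past 2-fold in either direction.

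Around the members, the noncoding gene Gm53 inside HoxB rose at 36 h in CreER (log2FC 0.55 ± 0.133, adjusted p = 0.00181) and had 122 to 260 reads there against 1071 to 1199 in O4AID. The pseudogene Gm11539, also within HoxB, ran the other way, with 265 to 500 reads in CreER and 38 to 61 in O4AID. Hotairm1 in HoxA had 4 to 15 reads in CreER and 32 to 53 in O4AID, and Hotair in HoxC 0 to 3 and 10 to 20. Of the other entries inside the spans, 14 of 20 in HoxA, 4 of 9 in HoxB, 7 of 7 in HoxC and 9 of 10 in HoxD were at the floor in CreER, and 11, 4, 5 and 7 in O4AID. The 2 nearest protein-coding genes on each side were mostly well expressed in both lines. Beside HoxA, untreated O4AID had 0.529 of the CreER level of Snx10, 3.14 of Skap2 and 1.55 of Hibadh, and Evx1 had 12 to 37 reads in CreER and 0 to 4 in O4AID. Beside HoxC the ratios were 24.9 for Atp5g2, 1.37 for Calcoco1, 2.5 for Smug1 and 0.886 for Cbx5. Beside HoxD they were 1.51 for Lnpk, 1.24 for Mtx2 and 2.79 for Hnrnpa3, with Evx2 at the floor in both lines, and beside HoxB 0.648 for Calcoco2, 0.202 for Ttll6 and 0.75 for Snx11, with Skap1 at 5 to 15 reads in CreER and 1 to 5 in O4AID.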

How the data were processed

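RNA was depleted of ribosomal RNA, made into strand-specific libraries and sequenced in paired ends, and the authors trimmed the reads with Trim Galore 0.1.4, aligned them to GRCm38/mm10 with TopHat2 2.1.0 and counted them per gene with featureCounts 1.5.1, per the study's methods and the labels. The deposited values used here are these raw counts, 1 table per library. The strand and multimapping settings of the count were not given in the sources used here. A table of normalised signal from the same counts was not used.

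Of 48801 entries, 92 spike-ins without reads were left out, and symbols were found for 48349 of the remaining 48709 genes. Reads on genes without a symbol were 0.0412% of all reads. CPM used TMM factors over the 15 libraries. In CreER, counts were tested with edgeR 4.0.16 (R 4.3.3; filterByExpr, quasi-likelihood F-test, all 10 libraries, time as the factor, Benjamini-Hochberg adjustment over all 18969 genes, threshold 0.05), and the script was checked on simulated counts. This test reports no SE, so the SE of a log2FC was taken as its absolute value over the square root of the F statistic. O4AID, with 1 library per time, was compared by size (at least 2-fold on log2(CPM + 0.1), at least 20 reads) with exact Clopper-Pearson 95% intervals of the count ratio. The study's own simulation of replicates was not repeated. A gene was at the floor with at most 3 reads in each library. Members averaging at least 10 reads in either line, or passing the test at any time, are given by sample, and the others by range. In each regulator list the 3 genes with the smallest adjusted p are named. Counts and medians cover all members, but the values of 1 member and of 1 regulator gene are not reported here. Members and lists were chosen with earlier results of these data known. Alternatives were other scalings and filters, DESeq2 1.42.0, a replicate term, fewer libraries, leaving out each library in turn, and other pseudocounts and read minimums. Promoters came from RefSeq (GRCm38.p6).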

Additional observations from a re-analysis of the deposited data

Results flagged for a closer look

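Hoxa10 was set apart because its libraries moved in opposite directions in the 2 lines at 24 h. In CreER it had 0.351 and 0.198 CPM at 0 h and 0.471 and 0.675 CPM at 24 h of 4OHT, with both later libraries above both untreated ones. In O4AID it had 19.1 CPM at 0 h and 12.2 CPM at 24 h of IAA, a ratio of 0.64 (95% counting interval 0.574 to 0.713). OCT4 protein is lost far more slowly in CreER, so 24 h does not stand for the same time without OCT4 in the 2 lines. The difference between the lines was not tested, since O4AID had 1 library per time, and the CreER difference did not pass in edgeR (adjusted p = 0.0949). With 9 and 6 reads at 0 h in CreER, Hoxa10 passed the filter on low counts only through its treated libraries.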

How the results depend on the processing

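In CreER at 36 h, Hoxb9 and Hoxd13 kept their direction and call under every alternative. DESeq2 called 3 members at 36 h and 0 at 24 h, of the 6 and 4 to which it gave an adjusted p. It gave none to Hoxd8. At least 10 reads in every library left 6 members to test, with 1 called at 18 h and median log2 fold changes of 0.221 at 18 h and 0.212 at 24 h. With no filter beyond 1 read, all 39 entered and the median at 36 h was 0.237. Leaving out single libraries gave 0 to 1 calls at 18 h, 0 to 3 at 24 h and 2 to 4 at 36 h. The count at 24 h was 0 without the second 0 h library or either 24 h library, and at 36 h it was 2 without the second 0 h library and 3 without either 36 h library. The medians then ranged from 0.161 to 0.563 at 12 h and 0.377 to 0.659 at 36 h. Hoxa7 ranged from -0.461 to 0.174 at 36 h and changed sign without the second 0 h library or the second 36 h library (0.067). In O4AID, a minimum of 1 read added Hoxd1 at 6 h (1 member past 2-fold), and a pseudocount of 1 CPM left 0 at 10 h. A floor of 10 reads per library put 26 members under it in CreER and 7 in O4AID. The comparison of untreated lines, 28 members past 2-fold in either direction, gave 20 to 28 under alternatives chosen after seeing the data, among them leaving out either 0 h library (25 to 28). The cause was not tested in any of these cases. Libraries with the same replicate number did not deviate together (r from -0.021 to 0.05 between times). This gives no sign that the numbers pair them, but it cannot exclude that cultures were paired. A replicate block gave 0, 0, 2 and 5 calls at 12, 18, 24 and 36 h and left each tested member on its side of the threshold at 36 h.

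Depth limits the rest: 26 members had at most 10 reads in each CreER library, and 29 could not be tested there. The log2 fold changes of 9 of the 10 tested members (not Hoxd1) at 36 h kept their direction and side of the threshold in 80 cases, lost the call in 11 and reversed in 2.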
